A study of Mus musculus with 3 samples.

Results

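The genes described here are 41 mouse genes of DNA replication and repair, named in a hand-written list and found through the accessions of their probes. The list runs from origin licensing and the replicative helicase through the polymerases, the sliding clamp and nucleotide supply to repair and maintenance methylation. All 41 had a matched probe on the arrays, among 20660 genes with one, and 39 of them were measured, among 13178 measured genes. A gene counted as measured when 3 or more of its probe's 6 readings stood well above background. Orc1, a subunit of the origin recognition complex, and Brca1, a homologous recombination factor, had 1 such reading each, so no value is given for them.

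The cells were bone marrow-derived macrophages of C57BL/6J mice, grown to maturity with supernatant of L929 fibroblasts, which supplies the macrophage growth factor CSF-1, and then held in low serum. The treated group received adiponectin, a hormone of fat tissue, at 12 µg/ml for 18 h, and the untreated group received none. The labels give 3 biological replicates, and the age and sex of the mice are not given in the sources used here. Each replicate was 1 Agilent array carrying RNA of treated cells in one dye and of untreated cells in the other, with the treated RNA labelled in Cy5 on replicate 2 and in Cy3 on the others. Where nothing says that the replicates came from separate mice or cultures, p-values measure only the spread between these arrays.

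Spots well above background made up 44.8 to 48.3% in treated channels and 54.1 to 55% in untreated channels, no spot was saturated, and the log2 ratios of any pair of arrays correlated across genes with r of 0.9426 to 0.9681. Array weights estimated by limma were 1.64, 0.577 and 1.06 for replicates 1, 2 and 3, so replicate 2 lay farthest from the common fit. All 8 measured macrophage markers of 9 listed were well above background in every reading, 2 rose and 6 fell, and their summed level was 156843 to 193098 intensity units in treated and 310503 to 337379 in untreated macrophages. Of the haematopoietic progenitor markers, 3 of 5 were measured and all of them were lower in treated macrophages, with a summed level of 298 to 358 against 544 to 617 in untreated macrophages, while Gata2 and Mecom did not pass the filter. Markers of other cells the cultures could hold were measured in 7 of 8 cases for neutrophils (3 higher, 3 lower), 2 of 6 for T cells (1 higher), 2 of 5 for B cells (1 lower), 4 of 5 for dendritic cells (1 higher), 3 of 6 for fibroblasts (2 higher) and 1 of 5 for erythroid cells (not called). The summed levels in treated and untreated macrophages were 26553 to 41641 and 25146 to 28968 for neutrophil markers, 2202 to 2455 and 1939 to 2225 for T cell markers, and 437 to 479 and 1267 to 1339 for B cell markers. They were 44138 to 49387 and 35408 to 41730 for dendritic cell markers, 419 to 471 and 304 to 343 for fibroblast markers, and 70 to 78 and 81 to 82 for the erythroid marker. All these sums are of unlogged intensities, so the brightest gene of a list weighs most. For dendritic cells that was Siglech, which was not called (log2 change of 0.24, second probe −0.21). For neutrophils it was S100a9, also not called (0.13). The brightest macrophage marker in untreated cells was Csf1r (−1.79, other probes −0.97 and −0.71). The part of these markers in the results on replication genes was not tested. In RNA of whole cultures, fewer cells of a type and less RNA per cell cannot be told apart.

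A dividing cell loads the Mcm2 to Mcm7 ring onto origins with the help of the origin recognition complex, Cdc6 and Cdt1, and geminin (Gmnn) then blocks Cdt1 so that no origin is licensed again in the same cycle. Cdc45 and the GINS complex turn the ring into an active helicase, after which primase, the replicative polymerases, the Pcna clamp with its Rfc loader, and the RPA single-strand binding complex build the fork. Many of these genes are known targets of E2F transcription factors, which are active around entry into S phase. Macrophages matured from bone marrow with CSF-1 can still divide.

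Because E2F sites are the best known shared feature of such promoters, the stretches around E2F-type matches are shown for members that differ in their response: Mcm6, Mcm5, Mcm7, Cdc6 and Pola1, which were lower in treated macrophages, and Cdt1, Msh6 and Rfc3, which were higher. The sequences are RefSeq's on GRCm38.p6, written 5′ to 3′ on the strand of the gene, with the bases that match an E2F-type motif in capitals. They lie at chr1:128359730-128359830 (Mcm6, minus strand), chr8:75109341-75109382 (Mcm5, plus), chr5:138172026-138172063 (Mcm7, minus), chr11:98907998-98908035 (Cdc6, plus), chrX:93632271-93632308 (Pola1, minus), chr8:122568039-122568062 (Cdt1, plus), chr17:87975057-87975080 (Msh6, plus) and chr5:151651193-151651226 (Rfc3, minus).
Mcm6: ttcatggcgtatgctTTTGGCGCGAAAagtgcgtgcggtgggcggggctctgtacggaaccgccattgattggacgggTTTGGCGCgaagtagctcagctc
Mcm5: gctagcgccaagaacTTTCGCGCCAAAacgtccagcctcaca
Mcm7: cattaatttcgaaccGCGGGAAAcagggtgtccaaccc
Cdc6: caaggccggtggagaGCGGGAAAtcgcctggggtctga
Pola1: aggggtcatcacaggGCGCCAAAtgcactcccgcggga
Cdt1: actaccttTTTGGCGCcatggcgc
Msh6: ctcccgacTTTCCCGCcagcggcg
Rfc3: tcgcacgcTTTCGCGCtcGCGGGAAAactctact

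The motif was searched as TTTCCCGC, TTTCGCGC, TTTGCCGC or TTTGGCGC on both strands, in windows from 250 bases before to 50 bases after each annotated start. Windows were held for 35 of the 41 members, and 14 of these genes (40%) had a match, against 4.35% of the 10553 measured genes with a window and 2.6% of all 27025 genes in the table. Matches were found in 8 of 19 members that were lower in treated macrophages (42.1%), 3 of 6 that were higher (50%) and 2 of 8 that were not called (25%). Members of both directions thus held the motif. The CCAAT box (CCAAT, either strand) was in 25 of 35 members (71.4%), against 42.7% of measured genes, and the CHR element (TTTGAA, either strand) in 5 of 35 (14.3%), against 14.7%. Of the 21 E2F-type matches, 1 overlapped another motif. It was a further match of Mcm7, at positions 17 to 24 past the start, whose stretch is not shown above. A match describes the letters of the window and is not evidence that a factor bound there in these cells.

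Most called members were lower in adiponectin-treated macrophages, among them Mcm6, Prim1, Rrm2 and Pcna, and the higher ones were Cdt1, Mcm10, Msh6, Fen1, Tyms and Rfc3. Of the 39 measured members, 22 (56.4%) were lower and 6 (15.4%) were higher in treated macrophages, by limma's moderated test with Benjamini-Hochberg adjusted p under 0.05 over all 13178 genes. Over all measured genes, 46.1% were lower and 24.5% higher, so the count of lower members stood somewhat above a background that was itself broad. Changes of at least 2-fold (log2 of at least 1) were counted apart. Of the 39 members, 14 (35.9%) were lower by that much, against 12.6% of all genes, and 1 (2.56%) was higher by that much, against 6.80% of all genes. Treated levels lay wholly below untreated levels for 24 members (61.5%), against 48.8% of all genes, and wholly above them for 6 (15.4%), against 26.8% of all genes. All 28 called members had the same sign on all 3 arrays, which a call on 3 ratios tested against 0 nearly requires, so it is no separate support.

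The median change of the members was −0.50 on the log2 scale, against −0.17 for all measured genes, with quartiles of −1.12 and −0.0094 for the members and −0.64 and 0.22 for all genes. On the 3 arrays in turn the members' median was −0.45, −0.42 and −0.51. The calls rest on loess normalisation. With each array centred on its median instead, the median of the measured genes was −1.48, −0.06 and −1.67 on the 3 arrays, which follows the dye orientation, and limma called 0 of 13178 genes (5098 lower and 216 higher at unadjusted p under 0.05). With that centring and a dye term, 34 members were lower and 1 was higher, beside 9300 lower and 1124 higher of all 13178 genes. Lower genes then made up 97.1% of the members' calls and 89.2% of all calls. On 3 arrays a dye term leaves almost no spread of its own to each gene. The calls under median centring with a dye term, here and below, therefore rest on a variance shared across genes. They are weaker support than the calls of the other fits. With loess followed by centring on the measured genes, 21 members were lower and 8 higher, beside 4835 lower and 4637 higher of all genes (72.4 and 51% of calls lower).

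**Figure D1:**
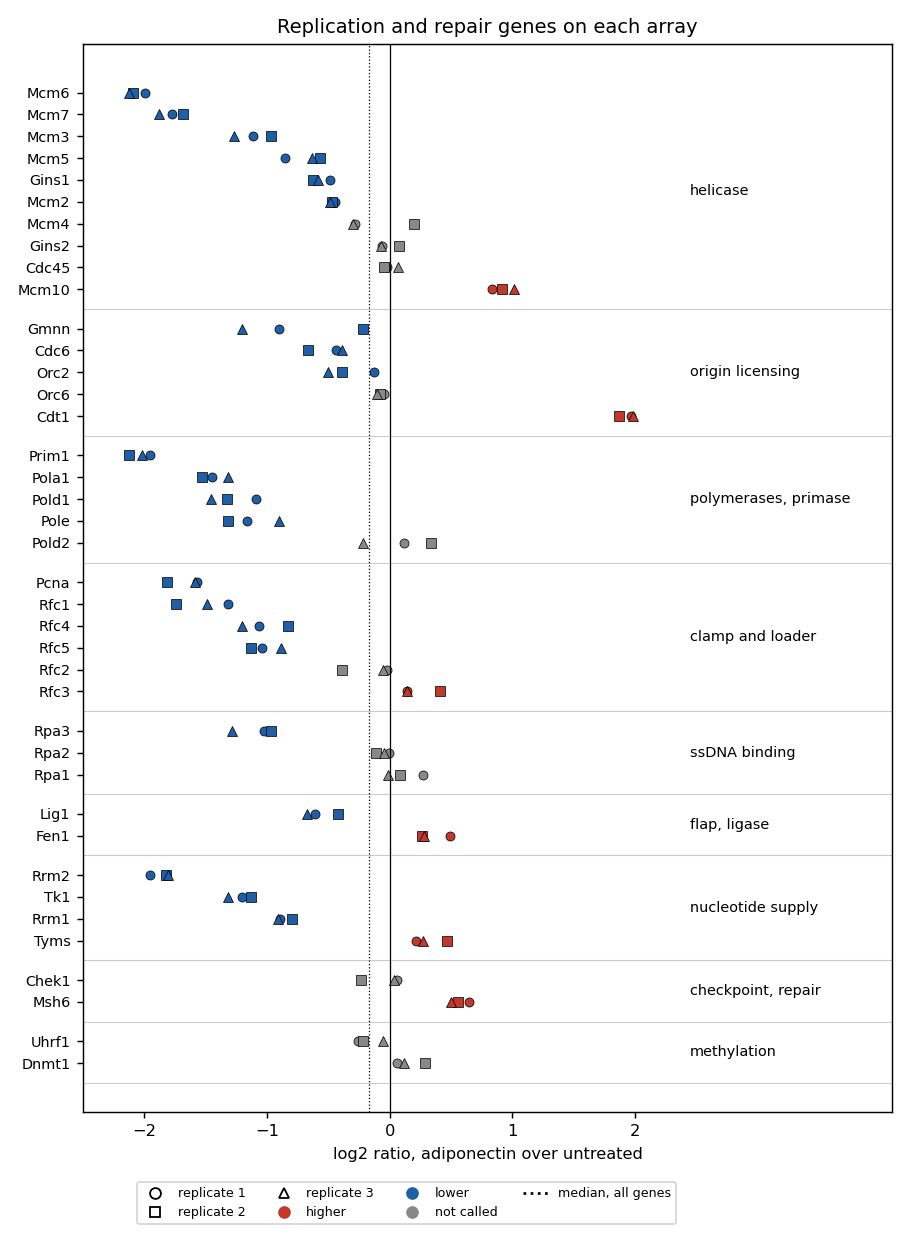
Log2 ratio of adiponectin-treated over untreated macrophages (x axis) for each of the 39 measured members, grouped by role, with 1 point per array (replicates 1 to 3) and colours for the limma call. The points of Mcm6, Prim1 and Rrm2 cluster around −2 and those of Cdt1 near 2, while Gmnn and Mcm4 show a replicate 2 that stands apart from the other two; the dotted line is the all-gene median of −0.17.

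The counts by role, here and below, are to be read against the 46.1% lower and 24.5% higher of all measured genes, and the roles are small. Among the 10 members of the replicative helicase and its activation, 6 fell, 1 rose and 3 were not called in treated macrophages, with a median of −0.52 on the log2 scale. Mcm6, a subunit of the Mcm2 to Mcm7 ring, had log2 normalised intensities of 10.65, 10.49 and 10.40 in treated and 12.64, 12.59 and 12.52 in untreated macrophages. The groups were far apart relative to their spread, and the log2 change was −2.07 ± 0.081 (moderated SE, n = 3 arrays, limma adjusted p = 2.36e-07). This was the lowest among the measured members under this processing. Without background subtraction Prim1 (−2.35) and Rrm2 (−2.08) fell further than Mcm6 (−2.05). Mcm7, another ring subunit, had levels of 8.34, 8.20 and 8.14 in treated and 10.11, 9.88 and 10.02 in untreated macrophages, a log2 change of −1.78 ± 0.084 (limma adjusted p = 5.36e-07). Mcm3 had levels of 9.65, 9.68 and 9.45 in treated and 10.77, 10.65 and 10.72 in untreated macrophages, a log2 change of −1.12 ± 0.090 (limma adjusted p = 9.20e-06). For both genes every treated level lay below every untreated level.

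The ring subunits did not fall by like amounts, although they work as 1 complex. Mcm5 fell by 0.69 ± 0.090 and Mcm2 by 0.47 ± 0.079 on the log2 scale. Mcm4 had ratios of −0.29, 0.19 and −0.30 on the 3 arrays and a change of −0.13 ± 0.11 that was not called (limma adjusted p = 0.329). Its treated levels overlapped the untreated ones, and without replicate 2, the array with the opposite dye orientation, its change was −0.29 with a limma adjusted p of 0.0177. Gins1, a GINS subunit, fell by 0.57 ± 0.082, whereas Gins2, of the same complex, was at −0.018 ± 0.083 and was not called. Under median centring with a dye term, Mcm4 (−0.91) and Gins2 (−0.78) were called lower. Cdc45, which binds the ring with GINS, was at −0.0012 ± 0.081 and was not called, and its treated reading was above background on 2 of 3 arrays.

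Mcm10, which promotes activation of the loaded helicase, moved the other way. Its levels were 9.59, 9.41 and 9.67 in treated and 8.76, 8.50 and 8.66 in untreated macrophages. Every treated level was above every untreated level, and the log2 change was 0.92 ± 0.083 (limma adjusted p = 1.77e-05). Under plain median centring its sign turned, to −0.18, and with a dye term added it was 0.076 and not called.

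Of the 5 measured origin licensing genes, 3 fell, 1 rose and 1 was not called, beside 46.1% lower and 24.5% higher of all genes. Cdt1, which brings the Mcm ring to origins, was the 1 member more than 2-fold higher. Its levels were 13.98, 13.89 and 14.00 in treated and 12.01, 12.01 and 12.01 in untreated macrophages. The untreated levels differed by less than the second decimal shows, and the log2 change was 1.94 ± 0.081 (limma adjusted p = 3.03e-07), a 3.84-fold higher level. Its sign was positive under every alternative processing, from 0.82 with plain median centring to 2.11 with centring on the measured genes.

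Gmnn, which encodes geminin, the protein inhibitor of Cdt1, went in the opposite direction. Its levels were 8.55, 8.77 and 8.24 in treated and 9.46, 8.98 and 9.44 in untreated macrophages. The groups did not overlap, but the per-array ratios of −0.90, −0.22 and −1.21 were the most variable of any measured member (SD of 0.508, against a median SD of 0.127 over the members). The log2 change was −0.78 ± 0.16 (limma adjusted p = 0.0028). Its smallest ratio came from replicate 2, and the dye coefficient of 0.42 had a limma adjusted p of 0.152. With 1 array in that orientation, a dye effect and a difference of that replicate cannot be told apart.

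Cdc6, which loads the Mcm ring together with the origin recognition complex, was lower on all 3 arrays (limma adjusted p = 0.0011). Its brighter probe was above background in 3 untreated and 0 treated readings, so only a bound is given. By that probe Cdc6 was at least 1.41-fold lower in treated macrophages under loess normalisation without further centring, a bound taken as for Pola1 below. A dimmer second probe, above background in 3 untreated readings and 1 treated reading, gave −0.34. Orc2, an origin recognition subunit, fell by 0.34 ± 0.096 (limma adjusted p = 0.0119), a call that was lost without replicate 3 (adjusted p = 0.0894). Orc6 was at −0.077 ± 0.079 and was not called, but median centring with a dye term called it lower (−0.94).

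Among the 5 polymerase and primase genes, 4 fell by more than 2-fold and 1 was not called, with a median of −1.29. Of all measured genes, 12.6% were lower by at least 2-fold. Prim1, the catalytic subunit of primase, had levels of 6.94, 6.56 and 6.93 in treated and 8.90, 8.69 and 8.95 in untreated macrophages. The groups were well separated, the log2 change was −2.03 ± 0.083 (limma adjusted p = 2.77e-07), and the treated signal was above background on 2 of 3 arrays. Pola1, the catalytic subunit of polymerase alpha, which extends primers together with primase, had levels of 6.65, 6.22 and 6.62 in treated and 8.10, 7.75 and 7.94 in untreated macrophages. No treated reading of Pola1 was above background. Under loess normalisation without further centring it was at least 2.70-fold lower in treated macrophages (limma adjusted p = 1.66e-06). The bound takes, on each array, the higher of the probe's own signal and the lowest signal among probes well above background. For Pola1 and Cdc6 the probe's own signal was the higher, so the bound equals the measured ratio and holds for that processing only. With loess followed by centring on the measured genes, the changes were −1.26 for Pola1 and −0.33 for Cdc6.

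Pold1, the catalytic subunit of polymerase delta, which copies the lagging strand, had levels of 8.32, 8.16 and 8.11 in treated and 9.42, 9.48 and 9.58 in untreated macrophages. Its log2 change was −1.29 ± 0.095 (limma adjusted p = 5.49e-06), with no overlap between the groups. Pole, the catalytic subunit of the leading-strand polymerase epsilon, had levels of 6.85, 6.46 and 6.86 in treated and 8.02, 7.78 and 7.76 in untreated macrophages, a log2 change of −1.13 ± 0.099 (limma adjusted p = 1.51e-05). Its treated signal was above background on 2 of 3 arrays. The accessory polymerase delta subunit Pold2 did not follow Pold1: its ratios of 0.12, 0.33 and −0.22 straddled 0 and it was not called (0.078 ± 0.11, limma adjusted p = 0.556). Under median centring with a dye term Pold2 was called lower (−0.41), by less than Pold1 (−2.11).

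The dim genes of this machinery carry changes whose size depends on the background step. An offset of 50 intensity units was added before taking logs, which draws the ratio of a dim spot towards 0. With an offset of 0 and the other steps unchanged, the log2 change was −3.18 for Prim1, −1.93 for Pole and −2.66 for Rrm2. The scanner software's own ratios, which differ in more than the offset, gave −3.87, −2.77 and −2.96 for these genes. For Cdc6, known only by a bound, the change came to −1.44 once the offset was dropped and to −2.44 by the scanner's ratios. In the scanner software's ratios the bright genes Mcm6 and Pcna moved little, to −2.08 and −1.71.

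**Figure D2:**
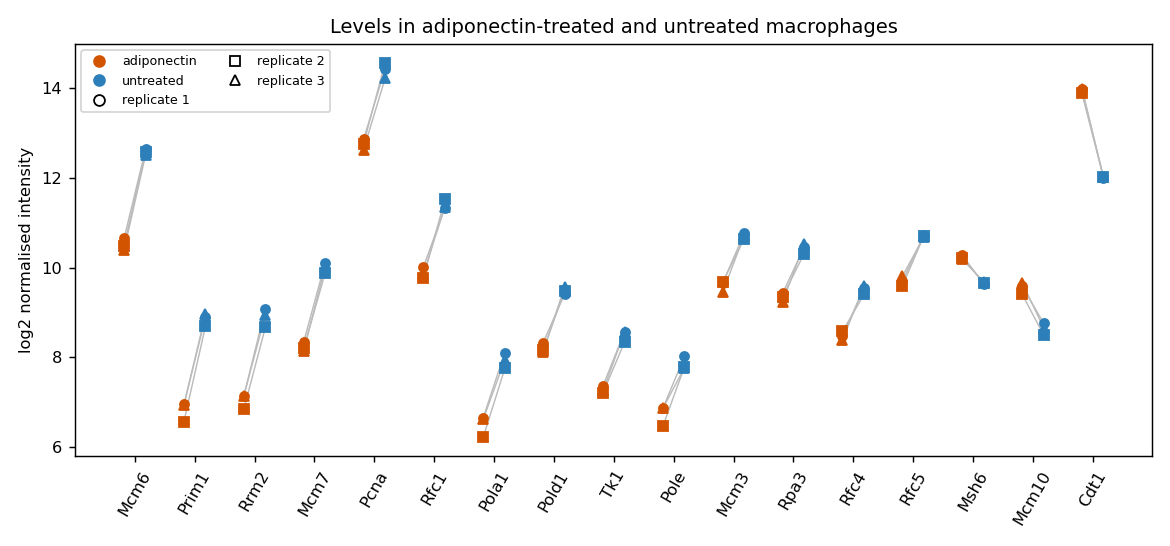
Log2 normalised intensity (y axis) on each of the 3 arrays in adiponectin-treated (left point of each gene) and untreated (right point) macrophages for the 14 members lower by at least 2-fold and for Msh6, Mcm10 and Cdt1, with lines joining the channels of an array. In all 17 genes the treated points do not overlap the untreated ones, as with Mcm6 at 10.40 to 10.65 against 12.52 to 12.64; levels are to be compared within a gene only.

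The sliding clamp and its loader fell for the most part, with 4 of 6 members lower, 1 higher and 1 not called, and a median of −1.02. Of all genes, 46.1% were lower and 24.5% higher. Pcna, the clamp that holds polymerases on DNA, had levels of 12.86, 12.76 and 12.63 in treated and 14.43, 14.57 and 14.22 in untreated macrophages, a log2 change of −1.66 ± 0.088 (limma adjusted p = 9.67e-07). Rfc1, the large subunit of the loader, had levels of 10.02, 9.78 and 9.86 in treated and 11.33, 11.52 and 11.36 in untreated macrophages, a log2 change of −1.52 ± 0.10 (limma adjusted p = 2.98e-06). Both were separated by more than a log2 unit between the lowest untreated and the highest treated level.

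Of the small loader subunits, Rfc4 had levels of 8.47, 8.57 and 8.38 in treated and 9.54, 9.40 and 9.59 in untreated macrophages, and fell by 1.03 ± 0.096 on the log2 scale (limma adjusted p = 2.09e-05). Its second probe gave −1.01. Rfc5 had levels of 9.69, 9.59 and 9.80 in treated and 10.73, 10.71 and 10.69 in untreated macrophages, and fell by 1.02 ± 0.086 (limma adjusted p = 1.24e-05). Under loess normalisation the other small subunits did not share a fall of this size. Rfc2 was at −0.16 ± 0.097 and was not called. With a dye term Rfc2 was called lower, at −0.21 under loess and −1.05 under median centring. Rfc3 rose by 0.23 ± 0.091 (limma adjusted p = 0.0452). The call on Rfc3 was lost when any 1 array was left out (limma adjusted p = 0.0718 to 0.17). Its direction turned under plain median centring (−0.76, not called) and under median centring with a dye term (−0.48).

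The RPA complex, which coats single-stranded DNA, was split in the same manner under loess normalisation. Rpa3, its small subunit, had levels of 9.43, 9.35 and 9.23 in treated and 10.45, 10.31 and 10.52 in untreated macrophages, a log2 change of −1.09 ± 0.093 (limma adjusted p = 1.22e-05) with no overlap. The large subunit Rpa1 was at 0.12 ± 0.089 and the middle subunit Rpa2 at −0.054 ± 0.081, and neither was called. Under median centring with a dye term both were called lower (Rpa1 −0.72, Rpa2 −0.59). With loess followed by centring on the measured genes, Rpa1 was called higher (0.29). At the joining step of the lagging strand, the ligase Lig1 fell by 0.57 ± 0.087 (limma adjusted p = 4.25e-04), whereas the flap endonuclease Fen1 rose by 0.35 ± 0.087 (limma adjusted p = 0.0065). The call on Fen1 was lost without replicate 1 (limma adjusted p = 0.0756). Its direction turned under plain median centring (−0.83, not called) and under median centring with a dye term (−0.53).

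In nucleotide supply, 3 of 4 members fell and 1 rose, beside 46.1% lower and 24.5% higher of all genes. Rrm2, the small subunit of ribonucleotide reductase, had levels of 7.13, 6.84 and 7.14 in treated and 9.08, 8.66 and 8.94 in untreated macrophages, a log2 change of −1.86 ± 0.082 (limma adjusted p = 3.97e-07). Tk1, the thymidine kinase of the salvage route, had levels of 7.36, 7.20 and 7.24 in treated and 8.57, 8.34 and 8.57 in untreated macrophages, a log2 change of −1.22 ± 0.084 (limma adjusted p = 3.69e-06). The groups of both genes stood more than 0.9 apart at their nearest levels. Rrm1, the large subunit of ribonucleotide reductase, fell by 0.87 ± 0.081, about 1 log2 unit less than Rrm2. Tyms, thymidylate synthase, rose by 0.32 ± 0.087 (limma adjusted p = 0.0109), with ratios of 0.21, 0.46 and 0.27. Its levels of 6.99, 7.61 and 6.96 in treated and 6.78, 7.15 and 6.69 in untreated macrophages overlapped between arrays, so the call rests on the ratios within arrays. It was lost under plain median centring (−0.046) and under median centring with a dye term (0.084).

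The remaining members act in the checkpoint, in repair and in copying DNA methylation. Msh6, which recognises mismatches in newly copied DNA, had levels of 10.28, 10.21 and 10.19 in treated and 9.63, 9.66 and 9.69 in untreated macrophages. Every treated level was above every untreated one, with a log2 change of 0.57 ± 0.082 (limma adjusted p = 2.97e-04). Its direction turned under plain median centring (−0.59, not called) and under median centring with a dye term (−0.31). Chek1, the checkpoint kinase that acts downstream of Atr at stalled forks, was near background, with 0 of 3 treated and 3 of 3 untreated readings above it, and was not called (−0.046 ± 0.091). Uhrf1, which recruits the maintenance methyltransferase to newly copied DNA, was at −0.18 ± 0.085 (limma adjusted p = 0.0918), and that methyltransferase, Dnmt1, was at 0.16 ± 0.086 (adjusted p = 0.136). Neither was called, although the levels of the groups did not overlap for either gene. Under median centring with a dye term both were called lower (Uhrf1 −0.93, Dnmt1 −0.66). With loess followed by centring on the measured genes, Dnmt1 was called higher (0.33).

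**Figure D3:**
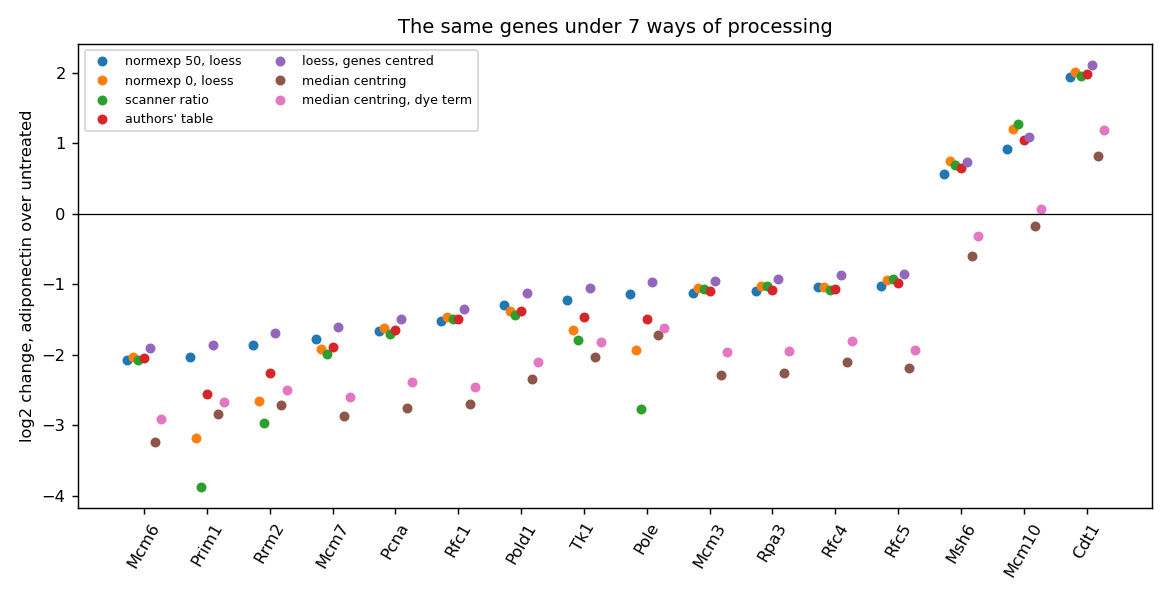
Log2 change of treated over untreated macrophages (y axis) for 16 of the 17 genes in the plot of levels (x axis), leaving out Pola1, which is known only by a bound, under 7 ways of processing the arrays, 1 colour each. Prim1 and Pole spread downwards, to −3.87 and −2.77 with the scanner software's ratio, while Mcm10 and Msh6 lie below 0 with plain median centring, at −0.18 and −0.59.

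To set the members in their process, 163 further genes of replication, repair and the cell cycle were taken from 11 lists, of which 155 were measured. Of these, 103 (66.5%) were lower and 22 (14.2%) higher in treated macrophages, against 46.1 and 24.5% of all genes, and their median change was −0.45. Centring on the measured genes gave 82 lower and 32 higher, beside 4835 lower and 4637 higher of all 13178 genes. All 7 measured mismatch repair genes of these lists, which do not hold Msh6, fell, with a median of −0.86.

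Over all measured genes 46.1% were lower and 24.5% higher, and the counts of the further lists stand against these shares. Of 13 other helicase and origin genes, 7 fell and 1 rose, and the most changed were Topbp1, a helicase and checkpoint activator (−1.11), and Mcmbp, which binds Mcm subunits (−0.82, with other probes at −1.16 and −0.30). Of 19 other polymerase and fork genes, 10 fell and 4 rose. Prim2, the partner of Prim1 in primase, fell by 1.53 ± 0.097 and Timeless, of the fork protection complex, fell by 1.38 ± 0.084, with a second probe at −0.59. Both primase subunits were thus lower. In nucleotide supply 9 of 13 fell and 0 rose, led by Samhd1, which degrades deoxynucleotides (−2.80 ± 0.087, with a second probe at −0.87), and Dck, a salvage kinase (−1.71 ± 0.088). Genes that supply and that remove deoxynucleotides were therefore both among the lower ones.

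The repair lists are likewise to be read against the 46.1% lower and 24.5% higher of all genes. The counts of lower and higher genes were 14 and 2 of 22 for homologous recombination and Fanconi genes, 6 and 1 of 7 for end joining, 17 and 2 of 22 for base and nucleotide excision, and 8 and 1 of 11 for the damage checkpoint. Named by the size of their change, these were the helicase Blm (1.76) and the Fanconi ligase Fancl (−1.17), the end-joining factors Xrcc6 (−1.74) and Prkdc (−1.15), the excision factors Ercc4 (−1.21) and Xpc (−1.18), and the checkpoint kinases Atr (−1.54) and Wee1 (1.23). Blm and Wee1 rose within lists that mostly fell.

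Chromatin assembly was the list with as many genes higher as lower, 4 and 4 of 11, with a median of −0.032. Chaf1b, of the histone chaperone that Pcna recruits to new DNA, rose by 1.78 ± 0.11 (ratios of 1.76, 1.53 and 2.04), and the histone chaperone Asf1a rose by 1.54 ± 0.079. Pcna itself was lower on the same arrays. Of 16 genes of E2F factors and pocket proteins, 10 fell and 4 rose, and the most changed were E2f5, a repressor-type E2F (2.02 ± 0.083), and Lin54, of the DREAM complex, which binds CHR elements (1.74 ± 0.089). Of 14 mitotic and cyclin genes, 11 fell and 3 rose. Mki67, a marker of proliferating cells, rose by 3.27 ± 0.098 (ratios of 3.08, 3.25 and 3.48, limma adjusted p = 6.66e-08), while Ccnd1, the cyclin of G1 phase, fell by 2.79 ± 0.11 (ratios of −3.04, −2.55 and −2.78).

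**Figure D4:**
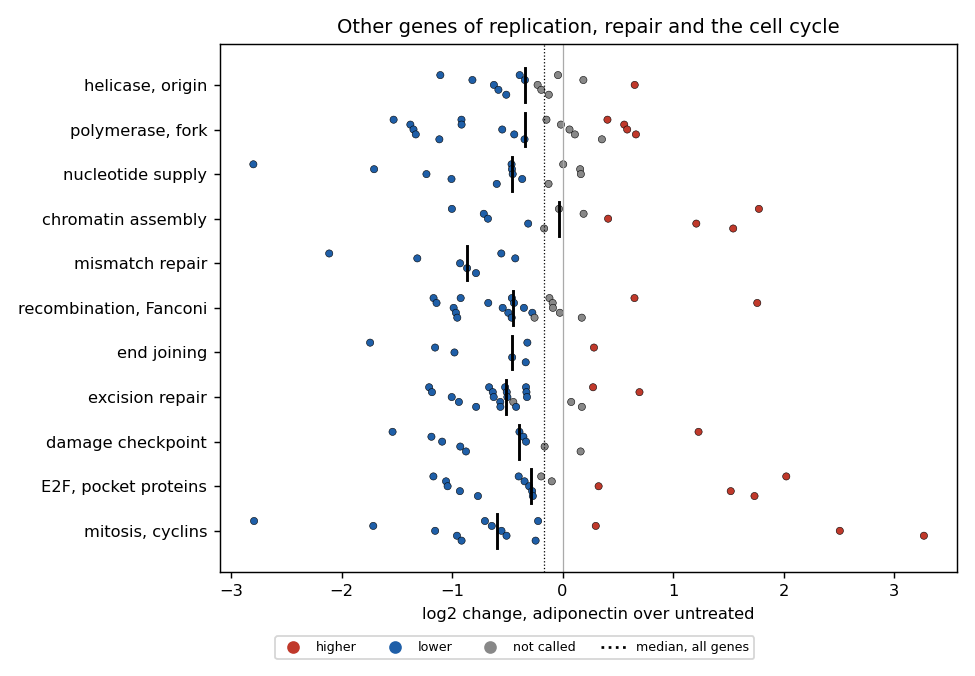
Log2 change of adiponectin-treated over untreated macrophages (x axis) for the 155 measured genes of 11 related lists (rows), 1 point per gene, with black bars at each list's median and a dotted line at the all-gene median of −0.17. The mismatch repair row lies wholly below 0 with a median of −0.86, while the chromatin assembly row has points on both sides and a median of −0.032.

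**Figure D5:**
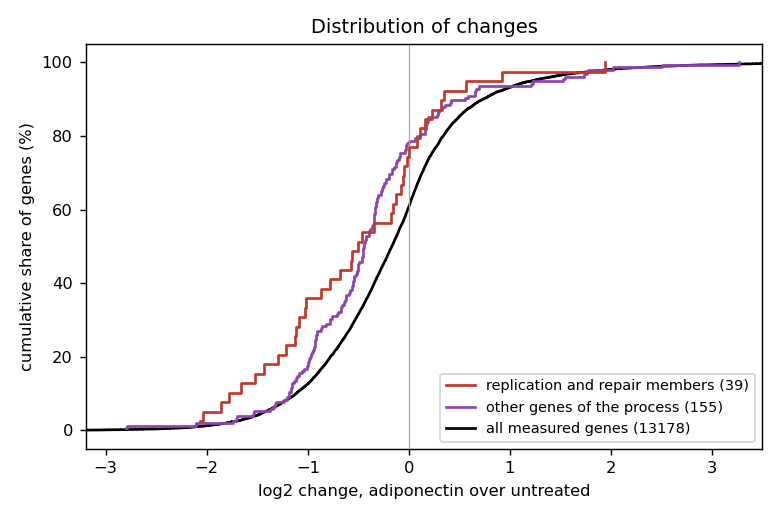
Cumulative share of genes (y axis, percent) by log2 change (x axis) for the 39 measured members, the 155 other genes of the process and all 13178 measured genes. The members' curve lies left of that of all genes through its middle, with medians of −0.50 and −0.17, and meets it at the high end, where Cdt1 lies at 1.94.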

How the data were processed

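Per the file headers, the arrays were quantified with Agilent Feature Extraction 10.7.3.1 on a design of build mm9. The deposited intensities, the median spot and background signals of 3 arrays with 2 channels each, were corrected with normexp (offset 50) and normalised by loess in limma 3.58.1 (R 4.3.3). Control spots had no weight in the loess fit, and outlier spots were left out afterwards, when spots were averaged per probe. Of 55681 probes, 27235 had 1 gene symbol, and the brightest probe stood for a gene. Log2 ratios of treated over untreated RNA, turned by the labelled dyes, were tested against 0 with lmFit and eBayes over 13178 genes, with Benjamini-Hochberg adjustment. Levels are channel intensities after Aquantile scaling. As alternatives, the deposited log10 ratios of the scanner software and the authors' log2 table, of unstated processing, were used. That table's scale and direction were taken from its correlation with these ratios (r of 0.9904 to 0.9939), its columns' medians were −0.000414, −0.00494 and −0.000642, and its normalisation stays unknown. The dose unit follows the labels' treatment text, since their extraction text has mg/ml. The test was tried on simulated data. Motifs were counted in RefSeq promoter windows. The members and lists were chosen with earlier results of these data known. Every member is named, with per-array values for called changes of at least 1 on the log2 scale and for the 3 largest called increases, and the 2 called genes with the largest change are named per list, except for mismatch repair, where they are not reported here. Other members whose values are given by array were chosen after these were seen. Alternatives changed the background step, normalisation, dye term, filter, probe choice, array weights or arrays.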

Additional observations from a re-analysis of the deposited data

How the results depend on the processing

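Under other background steps, no filter, the mean over probes, the scanner software's ratios or the authors' table, 34 to 39 of 39 measured members had the same direction and call, and the members' median lay 0.28 to 0.45 below that of all genes under all alternatives. Plain median centring called 0 members or other genes of the process in either direction (22 members lower and 82 other genes lower, 1 higher, at unadjusted p under 0.05), with a members' median of −1.33 and an all-gene median of −1.03. Under it the change turned negative for Mcm10 (−0.18), Rfc3 (−0.76), Fen1 (−0.83), Tyms (−0.046) and Msh6 (−0.59). With a dye term added to median centring, 1 member was higher and 34 were lower, and 10 other genes were higher and 133 lower. Of all 13178 genes, 1124 were then higher and 9300 lower. The members' median was −1.12 (all genes −0.75), and Rfc3 (−0.48), Fen1 (−0.53) and Msh6 (−0.31) were called lower. Centring on the measured genes raised the median to −0.33. A required log2 change of 1 left 1 member higher and 7 lower, and 8 other genes higher and 12 lower. Of all 13178 genes it left 575 higher and 872 lower. Lower genes made up 60% of the calls among the other genes and 60.3% among all genes, against 87.5% among the members. Leaving out 1 array gave 4 to 5 members higher, 21 to 23 lower, medians of −0.53 to −0.47, and 19 to 22 other genes higher and 93 to 104 lower. Over all genes these fits gave 2761 to 3150 higher and 5367 to 6143 lower. The cause of these differences was not tested. Calls under median centring with a dye term rest on a variance shared across genes and are weaker support than the others. The test of each array's ratio against 0 is itself the paired comparison, with no further block. Dim probes limit the size of changes, and with all 6 readings required 33 members remained in the test.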
